A study of Mus musculus with 2 samples.

Results

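The insulin-like growth factor genes measured here were the ligands Igf1 and Igf2, the receptors Igf1r and Igf2r, the binding proteins Igfbp2, Igfbp3, Igfbp4, Igfbp5 and Igfbp6, and the RNA-binding protein gene Igf2bp2. They were taken by name: every non-control probe whose gene name in the array files equalled a member was used, which gave 20 probes for the 10 genes, of 41174 probes and 27566 gene names on the array. The RNA came from C2C12, an established mouse line of skeletal myoblasts which, per the labels, comes from leg muscle of the C3H strain. Mybbp1a encodes a nuclear and nucleolar protein that binds transcription factors and represses transcription. The knockdown cells stably expressed a short hairpin RNA against Mybbp1a, and the control cells stably expressed a control hairpin. Both were mixtures of stable clones of the 1 line, and both were kept in serum-rich growth medium below confluence, in which myoblasts proliferate. On each of 2 arrays, knockdown RNA was labelled with Cy5 and control RNA with Cy3. No dyes were swapped, so a dye bias that normalization leaves in place and an effect of the knockdown cannot be told apart.

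Insulin-like growth factors are secreted peptides that drive growth and survival of myoblasts and, later, their differentiation. Both ligands signal through Igf1r, a receptor tyrosine kinase that acts through insulin receptor substrates, phosphoinositide 3-kinase and Akt, and Akt holds the FoxO transcription factors out of the nucleus. Igf2r carries no kinase: it binds Igf2 and takes it to the lysosome. The binding proteins hold the ligands outside the cell and are cut by proteases that release them. Differentiating C2C12 cells are known to make Igf2 and Igfbp5 in quantity.

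The array measured each gene through 60-base probes, and 4 of them that lie in coding sequence are shown because they make clear which part of the message a value refers to. For Igf1, Igfbp4 and Igfbp3 the capitals mark in-frame cysteine codons of these disulfide-rich proteins, and for Igfbp2 the capitals mark the stop codon. Each line runs 5′ to 3′.

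Igf1 A_52_P536434, chr10:87343472-87343531, plus strand, build mm8: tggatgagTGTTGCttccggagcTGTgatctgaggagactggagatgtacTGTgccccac

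Igfbp2 A_51_P423308, chr1:72785310-72785369, plus strand, build mm8: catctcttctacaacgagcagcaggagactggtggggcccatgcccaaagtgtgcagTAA

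Igfbp4 A_51_P398971, chr11:98864367-98864426, plus strand, build mm8: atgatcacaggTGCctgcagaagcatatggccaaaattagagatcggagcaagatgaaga

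Igfbp3 A_51_P228472, chr11:7108469-7109478, minus strand, build mm8: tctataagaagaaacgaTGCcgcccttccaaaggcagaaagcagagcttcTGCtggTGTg

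The Igf1 probe held 4 cysteine codons, the Igfbp3 probe 3 and the Igfbp4 probe 1. The Igfbp3 probe spanned 1010 bases of genome for its 60 bases, so it reads across a splice junction, and an unspliced message would not match it in full. The Igfbp2 probe ended with the stop codon of the gene.

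Values are log2 ratios of knockdown over control after background correction and loess normalization within each array, and levels are log2 intensities of each colour on a scale shared by the arrays. A probe was tested where at least 1 colour was well above background on both arrays, which 11 of the 20 member probes were, for 7 of the 10 genes. A gene is given by its brightest tested probe unless a probe is named. The 3 genes with no tested probe were Igf2, Igfbp3 and Igfbp4. None of the 38 member spots on an array was saturated (0 on either array). Across the array 65.6% and 79.7% of spots were well above background in the knockdown colour on arrays 1 and 2, against 64.9% and 72.9% in the control colour. The log2 ratios of the tested probes correlated between the arrays with r = 0.54 across 27006 probes, which are not independent and share the arrays and dyes, and 70.0% had the same sign on both. The labels call the arrays biological replicates without saying whether separate clone mixtures were grown, so a p-value here reflects the spread of these 2 RNA pairs, and that spread may be technical. Each array lay on a slide of its own, and an effect of the slide and of the replicate cannot be told apart.

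Mybbp1a itself was lower in knockdown cells, with log2 ratios of -1.64 and -1.91 on the 2 arrays. The mean was -1.78 ± 0.19 (SD, n = 2), 3.42-fold lower than in control cells, with a limma adjusted p of 0.137. That was the smallest adjusted p that any of the 27006 probes reached, and 28 probes shared it. With 1 residual degree of freedom, limma called 0 of 18062 genes (0%) at an adjusted p of 0.05, and at an unadjusted p under 0.05 it had 2577 genes higher and 1456 lower. An exact sign-flip test on 2 arrays cannot give a p below 0.5.

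Of the 7 tested members, Igfbp5, Igf2r, Igf1r, Igfbp6 and Igf2bp2 were higher in knockdown cells on both arrays and 0 were lower on both. Over all tested genes 40.6% were higher on both arrays and 29.4% lower on both. The members' median log2 ratio was 0.27, against 0.03 for all tested genes. At an unadjusted p under 0.05 limma had 3 members higher (Igfbp5, Igf2r and Igf1r) and 0 lower, beside 14.3% and 8.06% of all genes. Adjusted over every tested probe, 0 members passed, and the adjusted p-values of the 11 member probes ran from 0.164 to 0.941. None of the members (0 in either direction) was at least 2-fold apart on both arrays, beside 0.631% of genes that were 2-fold higher and 0.0554% that were 2-fold lower. In RNA from whole cultures, fewer cells of a type and less RNA per cell cannot be told apart.

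**Figure D1:**
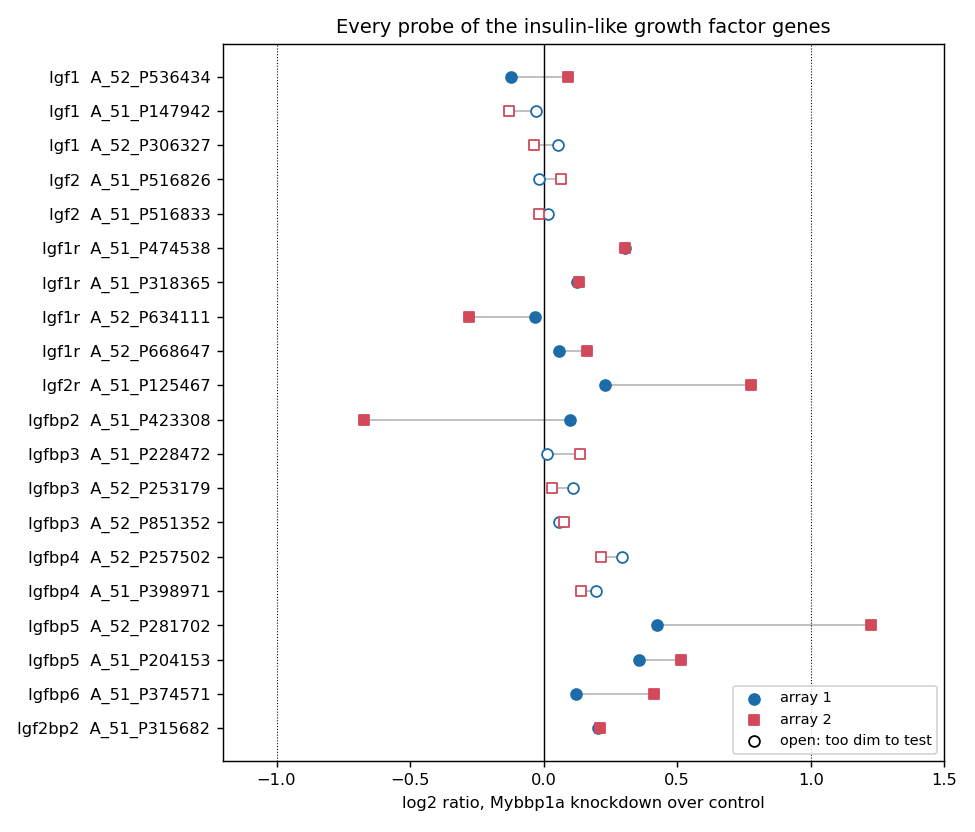
Log2 ratio of knockdown over control (horizontal axis) for each of the 20 member probes (rows), with array 1 as circles, array 2 as squares, a grey line joining them and open symbols for the 9 probes too dim to test; dotted lines mark 2-fold. Igfbp5 lies farthest right at 1.23 on array 2, and Igfbp2 is the tested probe whose arrays lie farthest apart across 0.

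The ligands gave little signal. Igf1, the growth factor that liver and muscle secrete, was tested through its coding probe, whose level was 7.05 and 7.33 log2 units in knockdown cells on arrays 1 and 2, against 7.18 and 7.24 in control cells. The arrays differed in direction, with log2 ratios of -0.12 and 0.09. Their mean of -0.02 ± 0.15 (SD, n = 2) was smaller than the spread between the arrays (limma adjusted p = 0.941). The other Igf1 probes were not well above background in either colour on either array. For A_51_P147942, which the array carries in 10 spots, 0 spots of either colour stood above background on array 1 and 1 spot of each colour on array 2.

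Igf2, the fetal growth factor that is expressed from the paternal allele, had no tested probe. Its probe A_51_P516826, at chr7:142460185-142460245 on the minus strand of build mm8, was also spotted 10 times. On array 1, 1 spot was well above background in the knockdown colour and 1 in the control colour. On array 2, 8 of the 10 spots were well above background in the knockdown colour and 0 in the control colour, and 4 carried an outlier flag. The log2 ratio of the remaining spots was nevertheless -0.02 on array 1 and 0.06 on array 2, and the levels were 6.58 and 6.59 in knockdown cells, against 6.60 and 6.53 in control cells. On array 1 the lowest level of any probe well above background was 6.96 in the knockdown colour and 6.82 in the control colour, above the Igf2 levels there. On array 2 those lowest levels were 6.31 and 6.34, below the Igf2 levels there. The probe was well above background on array 2 alone and in the knockdown colour alone, so no fold is given for Igf2. The other Igf2 probe, A_51_P516833, was not well above background in either colour on either array.

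H19 is the noncoding RNA whose gene lies beside Igf2 and is expressed from the maternal allele. Unlike the Igf2 probes, the brightest H19 probe was well above background in both colours on both arrays. Its log2 ratios were 1.61 and 1.41, a mean of 1.51 ± 0.14 (SD, n = 2), or 2.86-fold higher in knockdown cells (limma SE 0.098, adjusted p = 0.138). H19 was 2-fold higher on both arrays, which 0.631% of genes were. As the mean over its tested probes, H19 had 1.82 and 1.72 on arrays 1 and 2, a mean of 1.77.

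Igf1r, the receptor of both ligands, was read by 4 tested probes. The brightest, A_51_P474538 at chr7:68105625-68105684 on the plus strand of build mm8, had levels of 12.14 and 12.24 in knockdown cells, against 11.83 and 11.94 in control cells. Both knockdown levels lay above both control levels. The log2 ratios of 0.31 and 0.30 averaged 0.30 ± 0.0014 (SD, n = 2), 1.24-fold higher in knockdown cells, with a limma SE of 0.084, p of 0.0240 and adjusted p of 0.185.

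The other Igf1r probes gave smaller differences. A_51_P318365 had log2 ratios of 0.12 and 0.13 (limma adjusted p = 0.435), and A_52_P668647 had 0.06 and 0.16 (adjusted p = 0.517). A_52_P634111 went the other way, at -0.03 and -0.28 (adjusted p = 0.444). That probe lay 884 bases from A_51_P318365 and 4438 bases from the brightest probe on the same strand, while A_52_P668647 lay 38981 bases upstream of A_51_P318365. The mean over the 4 probes was 0.096, against 0.30 for the brightest, so the size for Igf1r depended on the probe.

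Igf2r, which clears Igf2 and carries enzymes tagged with mannose 6-phosphate to the lysosome, had 1 probe, A_51_P125467 at chr17:12525901-12525959 on the minus strand of build mm8. Its level was 11.98 and 11.83 in knockdown cells, against 11.75 and 11.06 in control cells. Both knockdown levels lay above both control levels, and the control levels lay farther apart than the knockdown levels. The log2 ratios of 0.23 and 0.78 averaged 0.50 ± 0.39 (SD, n = 2), 1.42-fold higher in knockdown cells. Limma gave it an SE of 0.16, a p of 0.0403 and an adjusted p of 0.212. That mean was above that of 94.2% of tested probes.

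Igfbp5, a binding protein that attaches to extracellular matrix, had the largest ratio among the members. Probe A_52_P281702, at chr1:72791462-72791521 on the minus strand of build mm8, had levels of 16.11 and 15.55 in knockdown cells, against 15.68 and 14.32 in control cells. On each array the knockdown level was the higher, but the knockdown level of array 2 lay below the control level of array 1. The log2 ratios of 0.42 and 1.23 averaged 0.82 ± 0.57 (SD, n = 2), or 1.77-fold, with a limma SE of 0.22, p of 0.0229 and adjusted p of 0.183. The mean lay above that of 97.9% of tested probes.

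The gap between the arrays was larger in the control colour. Igfbp5's level on array 1 exceeded that on array 2 by 0.56 log2 units in knockdown cells and by 1.36 in control cells. The control difference was above that of 99.0% of 33006 probes above background in at least 1 colour on at least 1 array. The second Igfbp5 probe, A_51_P204153, lay 2477 bases away on the same strand. It had levels of 9.95 and 9.37 in knockdown cells, against 9.59 and 8.85 in control cells. Its log2 ratios of 0.36 and 0.51 averaged 0.44 ± 0.11 (SD, n = 2), 1.35-fold higher in knockdown cells, and its adjusted p of 0.164 in limma was the lowest of any member probe. Both Igfbp5 probes thus had the same direction on both arrays, with different sizes.

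Igfbp2, whose product binds integrins as well as the ligands, is a neighbour of Igfbp5, and its probe lay 6092 bases from the nearer Igfbp5 probe. The level of Igfbp2 was 15.46 and 15.01 in knockdown cells, against 15.37 and 15.68 in control cells. The arrays went opposite ways, with log2 ratios of 0.10 and -0.67, a mean of -0.29 ± 0.54 (SD, n = 2) and a limma adjusted p of 0.486. The ratio of array 1 stood above that of 66.3% of tested probes and the ratio of array 2 above that of 2.41%. Igfbp2 therefore showed no difference larger than its spread, while Igfbp5, beside it in the genome, was higher on both arrays.

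Igfbp6, which prefers Igf2 over Igf1, had levels of 14.99 and 14.76 in knockdown cells, against 14.87 and 14.35 in control cells. Its log2 ratios of 0.12 and 0.41 averaged 0.27 ± 0.21 (SD, n = 2), and limma's adjusted p was 0.278. The knockdown level was the higher on each array, but the groups overlapped across arrays.

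Igfbp4 and Igfbp3 were too dim to test. Igfbp4, an inhibitory binding protein, was read by the coding probe shown above, with log2 ratios of 0.20 and 0.14. Only its knockdown colour on array 2 was well above background, so no fold is given. The other Igfbp4 probe, A_52_P257502, lay 3683 bases downstream and was above background in both colours on array 1 and in neither on array 2. Its log2 ratios were 0.29 and 0.22. Igfbp3, the main carrier of the ligands in serum, had 3 probes with ratios between 0.01 and 0.14. Its junction-spanning probe was above background in both colours on array 2 only, where the ratio was 0.14.

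**Figure D2:**
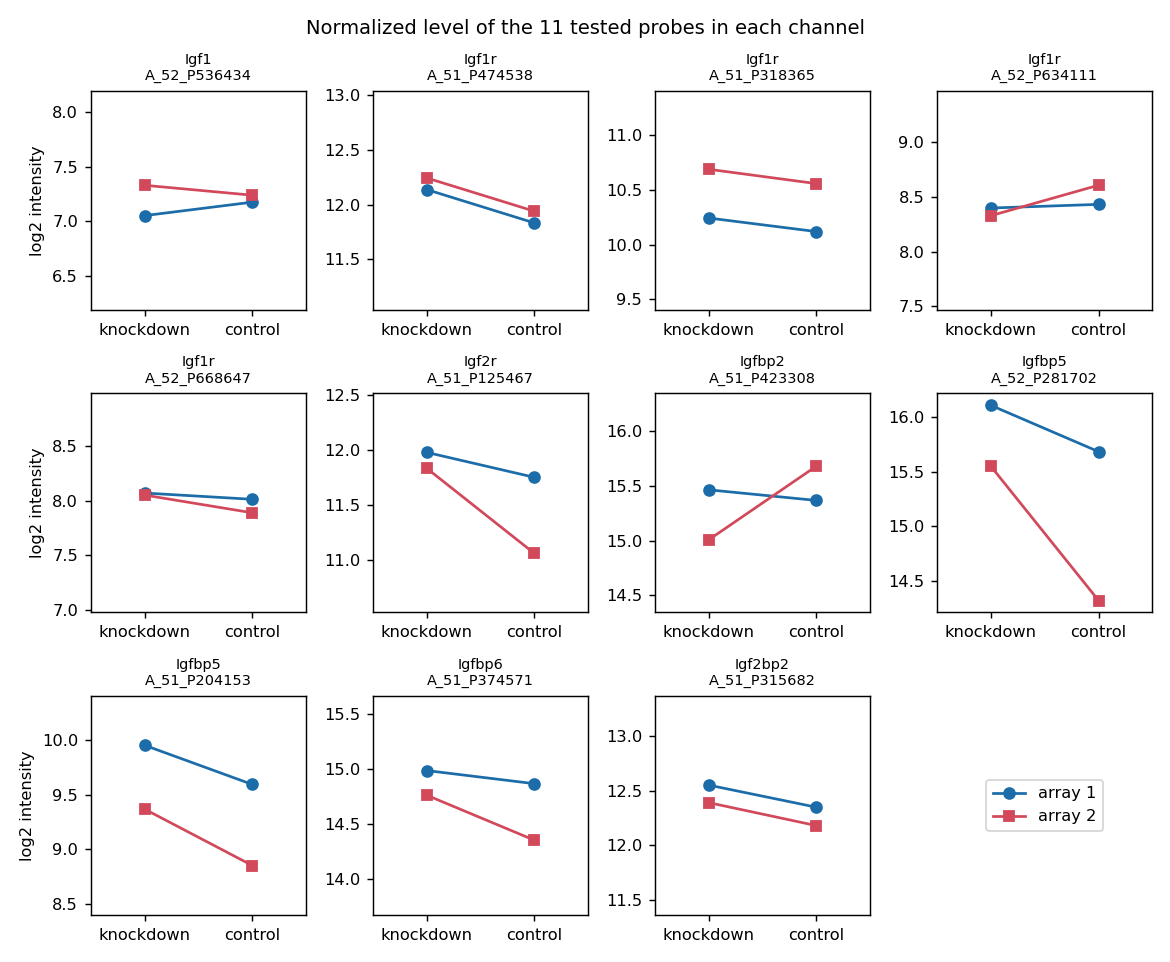
Normalized log2 intensity (vertical axis, each panel spanning 2 log2 units) of the 11 tested member probes in knockdown and control cells, with array 1 as circles and array 2 as squares, joined within an array. Lines slope down from knockdown to control for both arrays in Igf2r, Igfbp5, Igfbp6 and Igf2bp2, and cross in Igfbp2.

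Igf2bp2 is named for the growth factor but is no binding protein of the secreted kind: it binds messenger RNAs, that of Igf2 among them. Its probe A_51_P315682, at chr16:21974443-21974502 on the minus strand of build mm8, had levels of 12.55 and 12.39 in knockdown cells, against 12.35 and 12.18 in control cells. Both knockdown levels lay above both control levels. The log2 ratios of 0.20 and 0.21 averaged 0.21 ± 0.0049 (SD, n = 2), with a limma adjusted p of 0.266. Of 5 genes listed as partners of Igf2bp2, 3 were tested. On both arrays 0 were higher and 2 lower, beside 40.6% and 29.4% of all tested genes. Hmga2, a chromatin protein that drives transcription of Igf2bp2, had log2 ratios of -0.07 and -0.66 (limma adjusted p = 0.311).

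**Figure D3:**
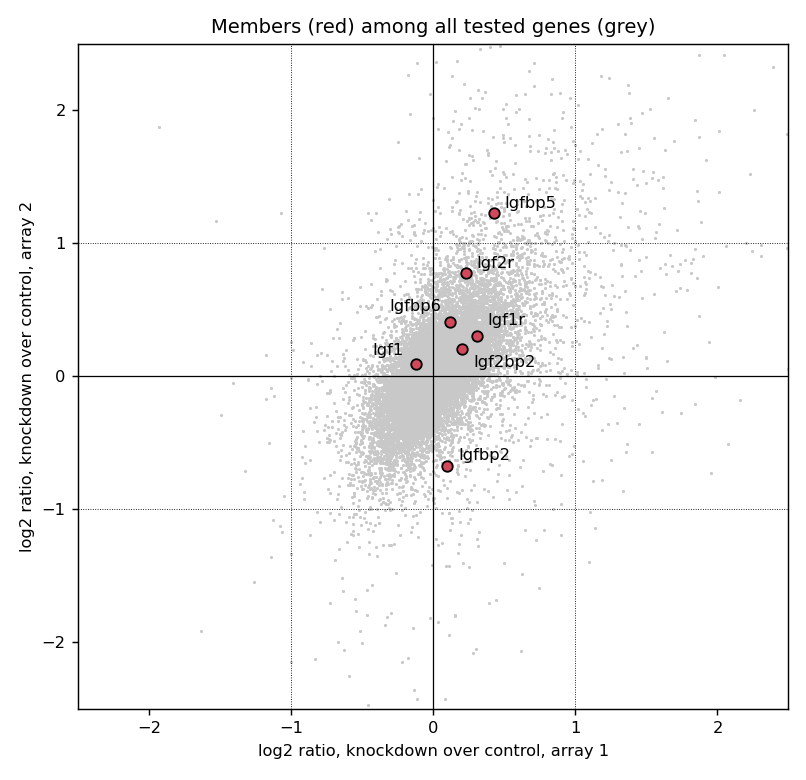
Log2 ratio of knockdown over control on array 1 (horizontal axis) against array 2 (vertical axis) for the tested genes in grey, with the 7 tested members in red and dotted lines at 2-fold; 55 of 18062 genes lie outside the axes. Igfbp5 passes 2-fold on array 2 and not on array 1, and Igfbp2 stands in the lower right quadrant.

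Promoters were read for what the members share in sequence. All 10 members matched RefSeq promoter windows of build GRCm38.p6, 14 windows in all, each with 250 bases before and 50 bases after the start of transcription. Those of Igfbp5 and Igf2r are shown because these genes had the largest ratios among the members. The capitals mark the E-box CANNTG, the core that myogenic regulators and other basic helix-loop-helix proteins bind, and the sequences run 5′ to 3′ along the gene.

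Igfbp5, chr1:72874816-72875115, minus strand, build GRCm38.p6: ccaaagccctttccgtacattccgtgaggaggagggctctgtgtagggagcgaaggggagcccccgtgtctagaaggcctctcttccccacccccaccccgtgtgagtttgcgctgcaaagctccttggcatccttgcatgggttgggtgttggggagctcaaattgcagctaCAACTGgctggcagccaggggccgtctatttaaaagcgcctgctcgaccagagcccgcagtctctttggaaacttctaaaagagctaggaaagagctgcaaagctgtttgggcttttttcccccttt

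Igf2r, chr17:12769657-12769956, minus strand, build GRCm38.p6: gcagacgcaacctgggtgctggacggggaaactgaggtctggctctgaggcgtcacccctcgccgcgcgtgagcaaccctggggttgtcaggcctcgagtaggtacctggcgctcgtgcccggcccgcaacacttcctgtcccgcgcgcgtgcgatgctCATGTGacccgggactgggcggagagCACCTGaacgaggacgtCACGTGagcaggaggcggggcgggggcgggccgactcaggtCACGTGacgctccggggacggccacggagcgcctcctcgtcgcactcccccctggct

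The Igfbp5 window held 1 E-box, at position -77 from the start of transcription, and 56.3% of its bases were G or C. The Igf2r window held 4 E-boxes and 3 copies of CCGCCC, the core of the GC box, and was 70.7% G or C. Of 32851 promoter windows of the same length, searched on both strands, 72.3% held CANNTG and 35.7% held CCGCCC, and the median G and C content was 52.7%. Windows of Igf1r and Igf2bp2, which were also higher on both arrays, held 0 E-boxes and 2 copies of CCGCCC each. That of Igfbp6, likewise higher on both, held 1 E-box and 0 copies of CCGCCC. The tested members whose arrays disagreed held these motifs too. The Igf1 window held 1 E-box and 0 copies of CCGCCC, and the Igfbp2 windows held 1 and 2 E-boxes, with 3 and 0 copies. Of the members with no tested probe, Igfbp3 had 2 E-boxes, Igfbp4 had 1, and the Igf2 windows had from 0 to 2. A match is a description of letters and not of binding.

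Genes that act on or beyond the members were examined as lists, which were chosen with earlier results of these data known. Their counts and medians are thus a description beside the values of all genes. Of 11 other family genes, 8 were tested, and their median log2 ratio was 0.08. On both arrays 3 were higher and 3 lower, beside 40.6% and 29.4% of all tested genes. H19 was the 1 gene among them at least 2-fold apart on both arrays. Insr, the insulin receptor, had log2 ratios of -0.12 and 0.39.

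Among 9 genes for proteases that cut binding proteins and for inhibitors of those proteases, 7 were tested and 3 were at least 2-fold apart on both arrays. Of these, 2 were higher and 1 lower, beside 0.631% and 0.0554% of all tested genes. C1s1, the complement protease whose human counterpart cuts IGFBP5, had log2 ratios of 1.69 and 1.77, a mean of 1.73 ± 0.055 (SD, n = 2), 3.32-fold higher in knockdown cells (limma adjusted p = 0.137). For C1s1 the mean over its tested probes was 1.47, with 1.40 and 1.54 on arrays 1 and 2. Stc1 and Stc2 encode stanniocalcins, secreted inhibitors of the protease Pappa, which cuts Igfbp4. Stc1 was higher in knockdown cells, at 1.09 and 1.34, with its control colour above background on 1 of 2 arrays (limma adjusted p = 0.140). Stc2 was lower, at -1.08 and -1.13, a mean of -1.11 ± 0.032 (SD, n = 2), 2.15-fold lower in knockdown cells (limma adjusted p = 0.140). With Feature Extraction's processed signals the mean was 2.88 for Stc1 and -1.74 for Stc2, larger in size than with normexp, in the same directions. These inhibitors of the same protease thus had opposite ratios on both arrays, and Pappa itself had -0.16 and -0.10. The 7 tested genes had a median of 0.37, with 4 higher and 3 lower on both arrays, beside 40.6% and 29.4% of all genes.

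Genes of signalling below the receptor went both ways. Of 33 genes, 32 were tested, and 0 were at least 2-fold apart on both arrays, beside 0.631% of genes higher and 0.0554% lower. Of the 32, 10 were higher on both arrays and 11 lower on both, beside 40.6% and 29.4% of all tested genes. At an unadjusted p under 0.05 limma had 6 higher and 4 lower, beside 14.3% and 8.06% of all genes. The median log2 ratio was 0.04, with a range of -0.47 to 0.40. Irs1, the docking protein of the activated receptor, had -0.07 and 0.27, and Akt1 had -0.03 and -0.08. Irs2 was not analysed here.

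FoxO target genes, which are transcribed when Akt signalling is low, included 7 tested of 8, and 6 were higher on both arrays and 0 lower on both. Over all tested genes 40.6% were higher on both arrays and 29.4% lower on both. The targets' median log2 ratio was 0.56, against 0.03 for all tested genes. Akt activity was not tested. None of the targets (0) was at least 2-fold apart on both arrays, beside 0.631% of genes that were 2-fold higher and 0.0554% that were 2-fold lower. Bnip3, a mitophagy receptor, had log2 ratios of 0.997 and 1.74 (limma adjusted p = 0.153). Sesn3, a stress-induced sestrin, had 0.99 and 1.11 (limma adjusted p = 0.140), a mean of 1.05 by its brightest probe, against 0.45 as the mean over its tested probes. Pdk4, a kinase that holds back glucose oxidation, was the tested target whose arrays disagreed, at 0.53 and -0.92, and it is named after its values were seen. No gene of these lists passed limma's adjusted threshold.

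**Figure D4:**
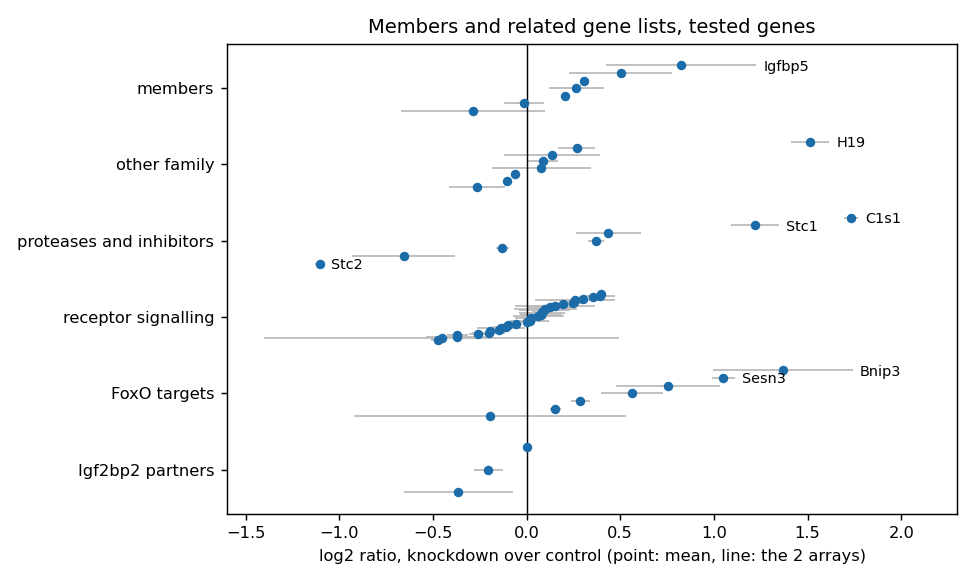
Log2 ratio of knockdown over control (horizontal axis) for the tested genes of the members and 5 related lists (rows), each gene as a point at its mean over 2 arrays with a line joining the arrays. C1s1, H19, Bnip3, Stc1 and Sesn3 stand above 1 and Stc2 below -1, while receptor signalling genes lie between -0.47 and 0.40 on average.

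Markers of other cell types were read beside these values, from lists that were likewise chosen with earlier results of these data known. All 6 myoblast markers were tested, with a median log2 ratio of 0.11, and the 8 markers of differentiated muscle had a median of 0.26, with medians of 0.36 on array 1 and -0.0044 on array 2. Of these 8 markers, 4 were higher on both arrays and 1 was lower on both, beside 40.6% and 29.4% of all tested genes. Myog, the myogenic factor myogenin, had the highest mean of the 8, at 0.79 and 0.51 (limma adjusted p = 0.158). It is named after its values were seen. Of 8 fibroblast markers, 7 were tested and all 7 were higher on both arrays, as 40.6% of all tested genes were. Their median was 1.22, against 0.03 for all tested genes. Col1a1, a collagen chain of fibroblasts and bone, had log2 ratios of 1.71 and 4.60, and Pdgfrb, a receptor of mesenchymal cells, had 1.04 and 1.40. Of 5 osteoblast markers 3 were tested, with a median of 0.13: Bglap, the bone matrix protein osteocalcin, had 1.92 and 1.63, while the transcription factors Runx2 and Sp7, named after their values were seen, averaged -0.05 and 0.13. Adipocyte, endothelial and leukocyte lists had 3 of 5, 2 of 4 and 1 of 4 markers tested, with medians of -0.05, 0.52 and 0.02. Of these, 1 adipocyte, 2 endothelial and 0 leukocyte markers were higher on both arrays. The part of the fibroblast markers in the values of Igfbp5, C1s1, H19 and the other genes named here was not tested.

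The scale on which the arrays are normalized decided whether members passed the threshold. With each array's ratios centred on the median in place of loess, 5 members had a limma adjusted p under 0.05 and were higher in knockdown cells: Igfbp5 (1.29, adjusted p = 0.0240), Igf2r (0.78, 0.0365), Igfbp6 (0.67, 0.0295), Igf1r (0.58, 0.0336) and Igf2bp2 (0.49, 0.0430). On that scale 19.1% of all genes were called higher, and the median of the tested probes was 0.19, against 0.016 with loess. The centred ratios followed brightness: their medians on arrays 1 and 2 were 0.39 and 0.29 in the brightest 6752 of the tested probes and -0.086 and 0.019 in the dimmest 6752. With loess those medians were -0.012 and -0.011 in the brightest set and 0.023 and 0.025 in the dimmest. Under median centring Igfbp2 turned to 0.16.

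**Figure D5:**
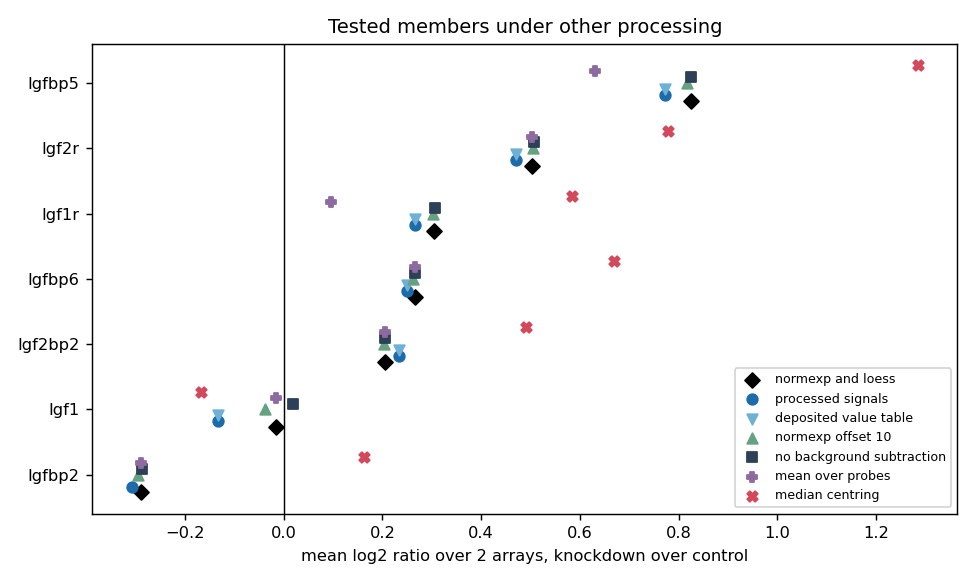
Mean log2 ratio of knockdown over control over 2 arrays (horizontal axis) for the 7 tested members (rows) under 7 processing settings. Most settings lie close to the values with normexp and loess, median centring lies farthest to the right for 6 of the members, and the mean over probes moves Igf1r to 0.096.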

How the data were processed

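Mouse whole-genome 2-colour arrays were analysed. Spots were quantified by Agilent Feature Extraction 9.5.3.1, per the submitters' processing notes. The deposited files give a mean and a background intensity per spot and colour, not yet subtracted, as their headers say. Per the file headers they also hold a log10 ratio, Cy5 over Cy3. A deposited table of the whole series gave log2 ratios of knockdown over control: 99.4% of its values matched that log10 ratio, turned to log2, within 0.001, with a median of 0 on each array. Probe coordinates are those of build mm8, per the file headers.

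Signals were corrected with normexp (offset 50) and normalized by loess (span 0.3) with limma 3.58.1 (R 4.3.3). Control spots (1639) took no part in the loess, and they and spots with an outlier flag (154 and 237) were dropped. Spots of a probe were averaged, and levels were scaled between arrays by Aquantile. Names of the 41174 probes came for 23483 from an accession in RefSeq's GRCm38.p6 gene table, and the others were named, 6678 by a current symbol, 2887 by a synonym and 8126 as in the files. Each of 27006 tested probes was set against 0 with limma (intercept, eBayes, two-sided, Benjamini-Hochberg over all tested probes, threshold 0.05), checked on simulated data.

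The members and lists were chosen with earlier results of these data known. Named genes were all members, Mybbp1a, and list genes with a log2 ratio of at least 0.5 in size and 1 sign on both arrays. From those lists 7 genes were to be named in any case, and markers were named where at least 2-fold apart on both arrays. With 2 arrays, their number limits the precision. Other background corrections, normalizations, filters, probe summaries and left-out replicates were tried.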

Additional observations from a re-analysis of the deposited data

How the results depend on the processing

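Across 10 other settings with both arrays, Igfbp5 ranged from 0.63 to 1.29 (log2, knockdown over control), Igf2r from 0.47 to 0.78, Igf1r from 0.096 to 0.58, Igfbp6 from 0.25 to 0.67 and Igf2bp2 from 0.20 to 0.49, all higher in knockdown cells. Median centring alone took calls past the threshold: 5 members in place of 0, 1 member at least 2-fold higher on both arrays, and 3526 genes in all against 0. It reversed Igfbp2 (0.16), Akt1 (0.38) and Hmga2 (0.030). Igf1 turned to 0.020 without background subtraction, and Irs1 to -0.29 as the mean over its probes, where Sesn3 was 0.45 in place of 1.05. Stc1 and Stc2 were 2.88 and -1.74 in the processed signals and in the deposited table, against 1.22 and -1.11. The deposited table held no Igfbp2 value on array 2, so it gave no Igfbp2 mean. With no filter on dim probes, 7 members were higher on both arrays, Igfbp3 and Igfbp4 among them.

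Leaving out replicate 1 or 2 left 1 array and no test. Without replicate 1 and without replicate 2, Igf1 was 0.091 and -0.12, Igfbp2 -0.67 and 0.097, Insr 0.39 and -0.12, and Irs1 0.27 and -0.070, each changing sign. The count of members 2-fold higher ran from 0 to 1 (Igfbp5 without replicate 1), of members lower was 1 each time, of members higher was 6 each time, and of list genes 2-fold apart ran from 4 to 8. Each array's ratio pairs knockdown with control RNA, so the test of the ratios was already paired and no unpaired fit was made. Signal over background limits Igf2, Igfbp3 and Igfbp4, for which no fold is given.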

Other observations

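The Igfbp4 probe A_52_P257502 differed between the arrays far more than between the cells. Its level was 8.68 on array 1 and 6.62 on array 2 in knockdown cells, against 8.39 and 6.41 in control cells. Array 1 exceeded array 2 by 2.06 log2 units in the knockdown colour, above 99.9% of 33006 probes, and by 1.98 in the control colour, above 99.7%. The second Igfbp4 probe, A_51_P398971, differed between the arrays by 0.19 in the knockdown colour and by 0.13 in the control colour.

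For dim probes the size of a ratio depended on the background correction. In Feature Extraction's own processed signals, the Igfbp3 probe A_52_P253179 had log2 ratios of 1.12 and 0.87, against 0.11 and 0.03 with normexp at an offset of 50. The Igfbp4 coding probe had 1.23 and 0.32 in the processed signals, and A_52_P257502 had 0.26 and 1.33. None of these was tested, since the probes were not well above background on both arrays.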
